A study of Mus musculus with 20 samples.

Results

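Interferon-stimulated genes and the genes of MHC class I antigen presentation were examined in whole-tissue RNA of mice, 10 tumors beside 10 normal kidneys. The set held 36 genes, picked by name from the 54532 genes of the count table, and all 36 had enough counts to be tested. It comprised 18 antiviral effectors, 4 transcription factors together with their restraint Usp18, 3 cytoplasmic RNA sensors, 3 immunoproteasome subunits, 3 genes of peptide transport and loading, and 4 genes for the class I chains and their activator. The tumors arose in the Cre-less AAV model, in which LSL-Cas9/+; Pax8 Cre/+ mice on a C57BL/6J background were injected in the kidney with an adeno-associated virus carrying sgRNAs against Vhl, Pbrm1, Keap1 and Tsc1. The injected virus carried no Cre, so that Cas9 and the GFP linked to it depended on Cre from the Pax8 gene, which is active in kidney epithelium. The study compared the tumors, each from a separate mouse, with normal kidney tissue that the series text places in the same animals, so both groups share the Cas9 and Pax8 Cre alleles. Which tumor and which kidney came from 1 mouse is not given in the labels, nor are the ages.

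Cells detect viral nucleic acids with sensors such as RIG-I and MDA5 and respond by secreting type I interferon. The interferon receptor then acts through the kinases Jak1 and Tyk2 to bring a complex with Stat2 and Irf9 to the interferon-stimulated response element (ISRE), whereas interferon gamma acts on the gamma-activated site (GAS). The induced genes include antiviral effectors, more of the sensors and factors themselves, and the machinery that cuts cytosolic proteins into peptides, carries these into the endoplasmic reticulum and loads them onto class I molecules for display to CD8 T cells.

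Total counts ranged from 18447394 to 24902973 in the tumors and from 14737516 to 26679704 in the normal kidneys, so that 3 counts in a library corresponded to 0.11 to 0.189 CPM, the unit of counts relative to library size that is used for levels throughout. As a check of the labels, Vhl was lower in tumors (log2 fold change -0.49 ± 0.12, SE, adjusted p = 0.00179) and so was Tsc1 (-0.61 ± 0.18, adjusted p = 0.00871), Pbrm1 did not pass the test (-0.28 ± 0.19, adjusted p = 0.23), and Keap1 was higher (0.83 ± 0.09, adjusted p = 1.3e-07). A guide can disrupt a gene without lowering its RNA. Tumor 7 stood apart by its macrophage, neutrophil and fibroblast markers, normal kidney 9 had the lowest TMM normalization factor (0.749), and normal kidneys 5 and 7 had Havcr1, a marker of tubule injury, at 163.5 and 1347 CPM, followed by normal kidney 8 at 128.5 CPM. All 7 markers of other kidney cell types, such as Umod of the thick ascending limb, were lower in tumors with no overlap between the groups, whereas of 7 proximal tubule markers 2 were lower and the other 5 did not pass the test. Of all 15354 genes tested, 23.8% were lower and 4.74% had every tumor below every kidney. In tissue of mixed cells, fewer cells of a type and less RNA per cell cannot be told apart.

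In tumors 29 of the 36 genes were higher than in normal kidneys (adjusted p under 0.05 over all 15354 genes tested) and 0 were lower. That was 80.6% of the set, beside 23.6% of all genes tested that were higher and 23.8% that were lower. The remaining 7 genes, Ifi44, Cmpk2, Gbp3, Irf1, Psmb10, Tap2 and Nlrc5, had positive fold changes that did not pass the test. The median log2 fold change of the 36 genes was 1.66, beside -0.0211 over all genes tested. At limits of a log2 fold change over 1 and a p under 0.001, taken here as the unadjusted p, 23 of the 36 were higher and 0 lower, beside 8.85% and 10.2% of all genes tested. Every tumor lay above every normal kidney for 12 of the 36, Ifit2, Oas1a, Oas3, Oasl1, Bst2, Irf7, Ddx58, Dhx58, Tapbp, B2m, H2-K1 and H2-D1, beside 5.87% of all genes tested. Every tumor lay below every normal kidney for 0 of the 36, beside 4.74% of all genes. The split of all calls depended on the scaling, with 49.8% of them higher as reported here, 39.2% after upper quartile scaling and 38.5% after scaling by library totals, when the median of all genes moved to -0.14 on the log2 scale. Under those scalings 28 and 26 of the 36 genes were higher and 0 lower. Leaving out tumor 7 and normal kidney 9 gave 29 higher and 0 lower, and leaving out normal kidneys 5 and 7 gave 28 and 0.

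**Figure D1:**
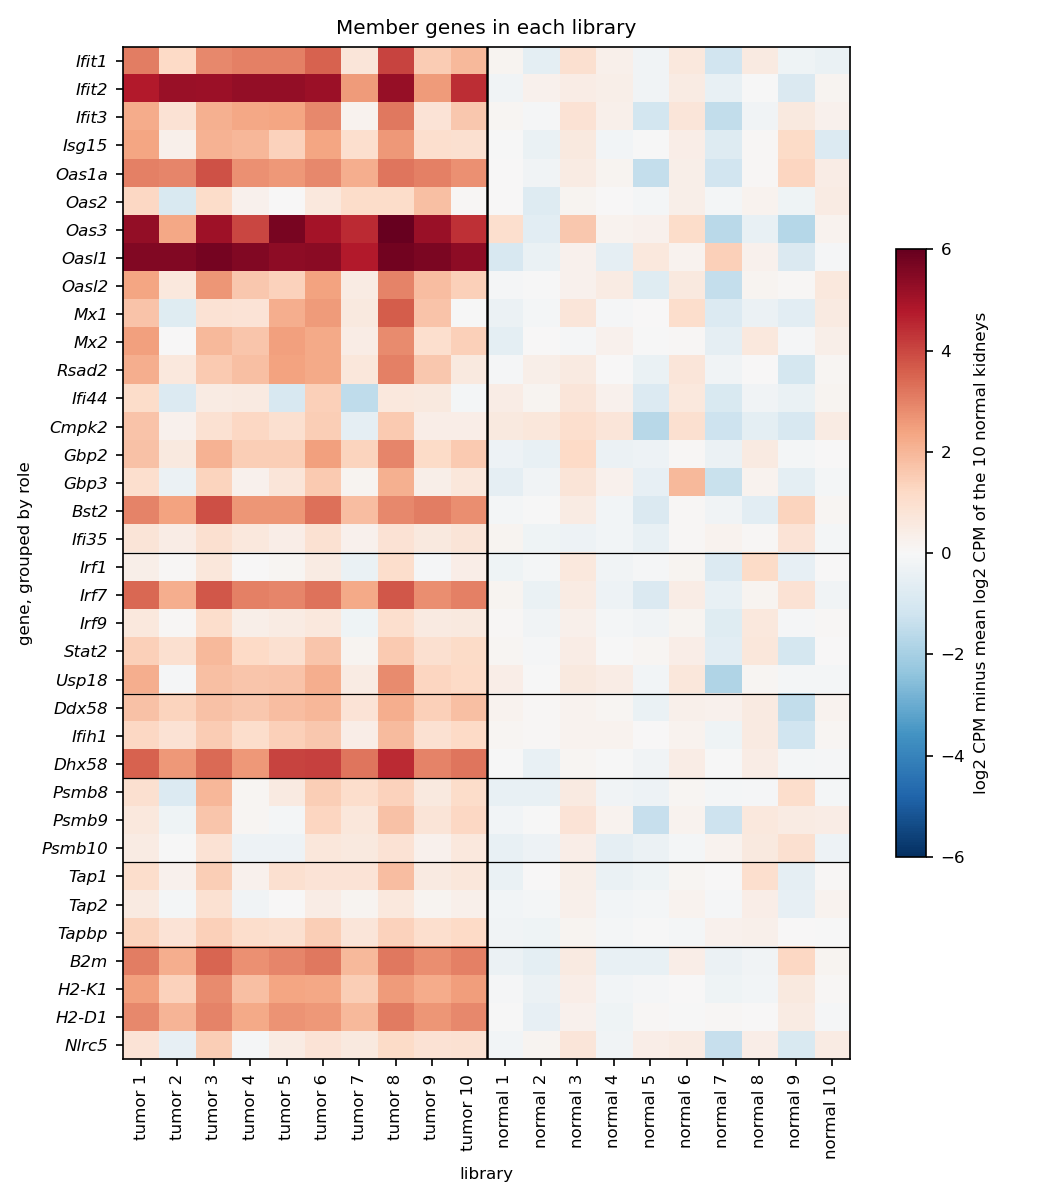
Heatmap of the 36 genes (rows, grouped by role and separated by lines) in the 10 tumors and 10 normal kidneys (columns). Color gives log2 CPM in each library minus the mean log2 CPM of the 10 normal kidneys, with red above and blue below that mean. The rows of Ifit2, Oas3, Oasl1 and Dhx58 are the deepest red across tumors, Ifi44, Irf1 and Tap2 are mostly pale, and tumors 2 and 7 are paler than the other tumors in most rows.

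To show what the genes share in sequence, the windows from 250 bases before to 50 bases after their RefSeq transcription starts (GRCm38.p6) were searched on both strands for 2 motifs, the ISRE core (GAAA, any 2 bases, then GAAA) and the GAS consensus (TTC, any 3 bases, then GAA). Windows were found for 29 of the 36 genes, the others being Oas2, Mx1, Mx2, Usp18, Dhx58, Tap2 and Nlrc5. The ISRE core lay in windows of 13 of the 29 genes (44.8%), namely Ifit1, Ifit3, Isg15, Oas1a, Oas3, Rsad2, Gbp2, Gbp3, Bst2, Stat2, Ddx58, Ifih1 and B2m, beside 3.99% of 27025 genes in the table. The GAS consensus lay in windows of 6 (20.7%), Bst2, Ifi35, Ifit2, Irf1, Oas1a and Psmb8, beside 9.55% of all genes. A match is a description of these letters and not a binding site. The 150 bases before the start are shown for 6 genes that were higher in tumors and carried the ISRE core, with matches to either motif in capitals. In Isg15, Oas1a and Bst2 copies of the core overlap each other, and in Bst2 the GAS match runs into them. In Ifit1 both copies read on the other strand, from TTTC to TTTC.
B2m (chr2:122147537-122147686, plus strand): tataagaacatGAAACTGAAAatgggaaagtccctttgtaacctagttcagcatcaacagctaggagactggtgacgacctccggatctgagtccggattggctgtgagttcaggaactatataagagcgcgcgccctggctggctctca
Isg15 (chr4:156200819-156200968, minus strand): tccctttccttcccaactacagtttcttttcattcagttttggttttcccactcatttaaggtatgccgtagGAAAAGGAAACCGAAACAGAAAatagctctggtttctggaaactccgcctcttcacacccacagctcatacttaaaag
Bst2 (chr8:71537473-71537622, minus strand): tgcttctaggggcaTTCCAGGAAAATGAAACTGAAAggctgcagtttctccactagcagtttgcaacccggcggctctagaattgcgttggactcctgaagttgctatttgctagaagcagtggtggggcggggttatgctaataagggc
Oas1a (chr5:120907526-120907675, minus strand): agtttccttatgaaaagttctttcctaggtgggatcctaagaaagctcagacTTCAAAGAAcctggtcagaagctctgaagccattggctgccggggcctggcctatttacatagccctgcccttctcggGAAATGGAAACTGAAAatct
Oas3 (chr5:120777660-120777809, minus strand): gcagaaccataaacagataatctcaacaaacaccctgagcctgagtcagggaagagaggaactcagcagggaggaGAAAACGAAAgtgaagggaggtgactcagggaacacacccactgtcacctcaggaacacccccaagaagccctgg
Ifit1 (chr19:34640739-34640888, plus strand): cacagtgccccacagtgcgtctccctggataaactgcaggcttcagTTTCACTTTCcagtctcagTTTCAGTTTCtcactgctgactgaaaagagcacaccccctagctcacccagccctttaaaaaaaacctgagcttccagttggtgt

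For comparison, the same stretch is shown for Oasl1 and Ifit2, which rose strongly in tumors without the ISRE core in their windows, and for Irf1, which carried the GAS consensus and did not pass the test. Gbp3, which carried the ISRE core, did not pass the test either and is not shown. Ifit2 had 2 windows, of which the one shown also held the GAS consensus further upstream.
Oasl1 (chr5:114923090-114923239, plus strand): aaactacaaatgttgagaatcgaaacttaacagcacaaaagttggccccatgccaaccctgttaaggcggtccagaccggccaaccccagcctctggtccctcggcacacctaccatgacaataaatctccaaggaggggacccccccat
Ifit2 (chr19:34550544-34550693, plus strand): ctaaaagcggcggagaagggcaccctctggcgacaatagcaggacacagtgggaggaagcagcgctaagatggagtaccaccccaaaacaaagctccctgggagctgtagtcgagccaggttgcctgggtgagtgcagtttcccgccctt
Irf1 (chr11:53769864-53770013, plus strand): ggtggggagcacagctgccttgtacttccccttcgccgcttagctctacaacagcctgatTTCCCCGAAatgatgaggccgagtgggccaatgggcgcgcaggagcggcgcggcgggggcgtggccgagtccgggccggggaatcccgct

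Among the antiviral effectors, 15 of 18 were higher in tumors, and 3 of them, Oasl1, Oas3 and Ifit2, had the largest fold changes of the whole set. Oasl1 belongs to the 2'-5' oligoadenylate synthetase-like proteins and lacks the synthetase activity of its relatives. It was at 75.1 CPM in the lowest tumor, 131 at the median and 154 in the highest, against 1.36, 2.88 and 7.38 CPM in normal kidneys (log2 fold change 5.35 ± 0.28, SE, n = 10 and 10, adjusted p = 4.73e-12). The lowest tumor was thus far above the highest kidney, and tumors 7 and 5 were the lowest of the tumors. Oas3, a synthetase that makes the 2'-5' oligoadenylates that activate RNase L, ranged from 2.56 to 66.9 CPM in tumors (median 17.5) and from 0.0628 to 1.53 CPM in normal kidneys (median 0.514), a log2 fold change of 5.12 ± 0.57 (adjusted p = 2.48e-07). Tumor 2 held the lowest and tumor 8 the highest value, and the groups did not overlap. Oas3 had 1 count in normal kidney 9 and 2 in normal kidney 7, so its fold change rests in part on low counts.

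Ifit2, which binds viral RNA together with Ifit1 and Ifit3, fell into an uneven pattern among tumors. It was at 104 CPM in tumor 9 and 105 CPM in tumor 7, at 381 CPM in tumor 10, and between 483 and 685 CPM in the other 7 tumors (median of all tumors 624 CPM). Normal kidneys lay between 9.74 and 24.7 CPM (median 18.8), so even the low tumors exceeded them (log2 fold change 4.76 ± 0.35, adjusted p = 6.58e-10). Its neighbors on chromosome 19 had smaller fold changes. Ifit1 had a median of 44.4 CPM in tumors (9.43 to 94.7) and 5.62 CPM in normal kidneys (2.48 to 11), a log2 fold change of 2.72 ± 0.38 (adjusted p = 5.02e-06), with tumor 7 alone inside the range of the kidneys. Ifit3 had medians of 77.5 and 19.4 CPM (1.97 ± 0.35, adjusted p = 8.68e-05), with 8 of 10 tumors above every normal kidney.

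Oas1a, another synthetase, rose without overlap, from 0.942 to 6.66 CPM in normal kidneys to 12.5 to 39.2 CPM in tumors (log2 fold change 2.84 ± 0.29, adjusted p = 5.79e-08). So did Bst2, or tetherin, which holds budding virions at the cell surface, with medians of 18 CPM in normal kidneys (10.4 to 47.1) and 135 CPM in tumors (67.8 to 279), a log2 fold change of 2.81 ± 0.27 (adjusted p = 2.44e-08). Normal kidney 9 held the highest Bst2 among the kidneys and tumor 7 the lowest among the tumors. Isg15, a ubiquitin-like protein attached to other proteins, had medians of 11.8 CPM in tumors (4.33 to 21.9) and 3.47 CPM in normal kidneys (1.93 to 8.04), a log2 fold change of 1.68 ± 0.31 (adjusted p = 0.000125). Here 6 tumors exceeded every kidney, and tumors 2, 7, 9 and 10 lay below normal kidney 9.

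Oasl2, Mx1, Mx2, Rsad2 and Gbp2 formed a middle group with log2 fold changes of 1.74 to 1.94 and overlapping ranges. Rsad2, or viperin, a radical SAM enzyme that blocks viral replication, went from a median of 24.3 CPM (11.5 to 39.1) to 78 CPM (35.7 to 195), and Gbp2, a guanylate-binding GTPase, from 11.2 CPM to 37.2 CPM. The 2 Mx genes, of the family of dynamin-like GTPases, were the least abundant per length of this group. Mx1 was at 0.285 CPM in tumor 2 and 7.8 CPM in tumor 8, around a tumor median of 1.51 CPM, against a kidney median of 0.493 CPM (log2 fold change 1.89 ± 0.48, adjusted p = 0.00292). With quality weights for the libraries in limma-voom, its adjusted p was 0.0794. Mx2, annotated as a polymorphic pseudogene in the count table, had medians of 3.76 and 1.01 CPM (1.94 ± 0.32, adjusted p = 3.73e-05).

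Smaller changes were measured for Ifi35 (0.64 ± 0.14, adjusted p = 0.000972) and for Oas2 (0.81 ± 0.28, adjusted p = 0.0194), whose call was lost without tumor 9 (adjusted p = 0.0502). Ifi44, Cmpk2 and Gbp3 did not pass the test. Cmpk2, a mitochondrial nucleotide kinase, had an estimate of 0.71 ± 0.34 (adjusted p = 0.094, and 0.0472 without tumor 7). The estimate for Gbp3 was 0.67 ± 0.37 (adjusted p = 0.137), with normal kidney 6 at 41.4 CPM and the median of the kidneys at 9.47 CPM. Without that kidney its log2 fold change was 1.07 (adjusted p = 0.00712). Ifi44 had the smallest fold change of the antiviral effectors (0.30 ± 0.32, adjusted p = 0.468). It was at 3.16 to 24.7 CPM in tumors and 4.82 to 15 CPM in normal kidneys.

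Among the transcription factors, Irf7, which drives transcription of interferon alpha genes, was the one with a large change. It was at 7.44 to 24.9 CPM in normal kidneys (median 13.4) and at 62.5 to 179 CPM in tumors (median 111), a log2 fold change of 3.04 ± 0.24 (adjusted p = 1.54e-09). Tumors 2 and 7 were the lowest and tumors 8 and 3 the highest, with no overlap with the kidneys. Stat2 and Irf9, both part of the complex that binds the ISRE, had log2 fold changes of 1.21 ± 0.21 (adjusted p = 7.73e-05) and 0.52 ± 0.16 (adjusted p = 0.0118). The call for Irf9 was lost after scaling by library totals (adjusted p = 0.0629). Irf1, a factor best known from the interferon gamma response, had medians of 22.6 CPM in tumors and, in normal kidneys, 18.1 CPM, and 0 tumors lay above every kidney (0.22 ± 0.22, adjusted p = 0.422). Usp18, a protease that removes Isg15 and dampens receptor signaling, rose from a median of 3.05 CPM (0.767 to 4.72) to 9.6 CPM (2.74 to 21.3), a log2 fold change of 1.64 ± 0.32 (adjusted p = 0.000286).

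All 3 RNA sensors were higher in tumors. Dhx58, or LGP2, which modulates the other sensors and lacks their signaling domains, had the largest change of the 3, from a median of 2.11 CPM (1.56 to 2.98) to 22.4 CPM (13.5 to 49.9), a log2 fold change of 3.57 ± 0.24 (adjusted p = 1.6e-10). The lowest tumors, 2 and 4, still exceeded every kidney. Ddx58, which encodes RIG-I, rose from a median of 32.6 CPM (9.99 to 40.7) to 95.2 CPM (49.4 to 128), again without overlap (1.61 ± 0.20, adjusted p = 7.66e-07). Ifih1, which encodes MDA5, had medians of 18.1 and 40 CPM (1.23 ± 0.19, adjusted p = 1.44e-05), and tumor 7 alone lay within the range of the kidneys.

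**Figure D2:**
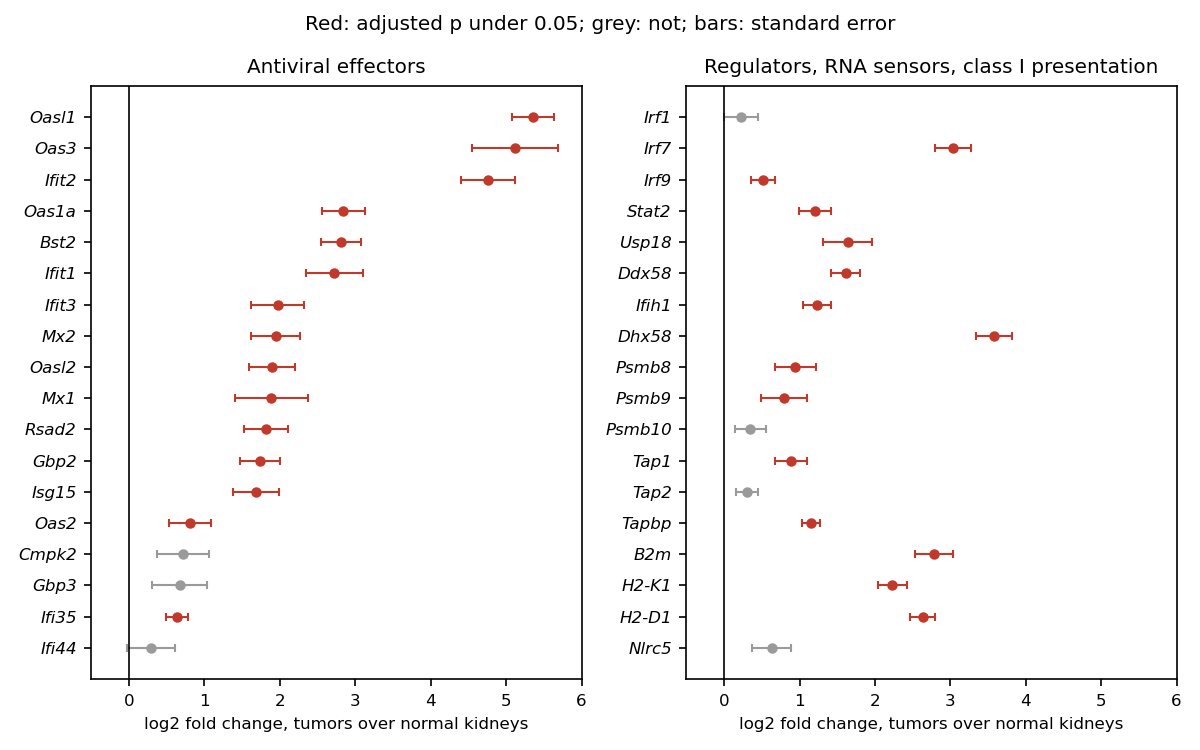
Log2 fold change of tumors over normal kidneys (x axis) for each of the 36 genes, with antiviral effectors at left in order of size and the other roles at right. Points are edgeR estimates, bars are standard errors, red marks an adjusted p under 0.05 and grey marks the 7 genes that did not pass. Values run from 0.22 for Irf1 to 5.35 for Oasl1.

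The immunoproteasome subunits Psmb8, Psmb9 and Psmb10 replace the constitutive subunits Psmb5, Psmb6 and Psmb7 in the proteasome and favor peptides that fit class I molecules. Their changes were modest. Psmb8 was at 5.93 to 42.3 CPM in tumors (median 21.1) and 7.61 to 22 CPM in normal kidneys (median 9.54), a log2 fold change of 0.94 ± 0.27 (adjusted p = 0.0072), and the range of tumors ran past that of the kidneys at both ends, with tumor 2 lowest. Psmb9 had medians of 8.55 and 5.94 CPM (0.79 ± 0.30, adjusted p = 0.0361), a call that was lost under 12 alternatives, among them upper quartile scaling (adjusted p = 0.0741) and leaving out any 1 of tumors 3, 6, 8 and 10 or normal kidneys 1, 2, 5 and 7 (adjusted p up to 0.0793, without tumor 8). Psmb10 did not pass the test (0.35 ± 0.20, adjusted p = 0.171), and without normal kidney 9 its adjusted p was 0.0397.

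Each immunoproteasome subunit was also set against its constitutive partner within a library, from log2 CPM with a prior count of 2. Apart from the prior count, such a ratio does not depend on scaling. By this ratio Psmb9 was 9.06% of Psmb6 at the median of tumors (4.09% to 16.2%). It was 5.56% at the median of normal kidneys (1.65% to 9.26%), and the difference in mean log2 ratio was 0.92. In a permutation test (two-sided, 100000 resamples) p was 0.0195, and 0.0586 after adjustment over the 3 ratios. Psmb8 over Psmb5 differed by 0.48 (adjusted p = 0.133, permutation test) and Psmb10 over Psmb7 by 0.31 (adjusted p = 0.133, permutation test). None of the 3 ratios passed 0.05 after adjustment, and without tumor 2 the adjusted p was 0.017 for both Psmb8 over Psmb5 and Psmb9 over Psmb6. Psmb9 over Psmb6 also passed without tumor 4 or 5, or without normal kidney 3 or 10. The constitutive subunits themselves did not pass the test between groups, at 0.26 ± 0.19 for Psmb5, -0.23 ± 0.17 for Psmb6 and 0.01 ± 0.16 for Psmb7.

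Of the genes that carry and load peptides, Tapbp, which encodes tapasin and bridges class I molecules to the transporter, differed without overlap. It was at 80.9 to 120 CPM in normal kidneys (median 94.1) and 158 to 271 CPM in tumors (median 210), a log2 fold change of 1.15 ± 0.11 (adjusted p = 4.1e-08). Tap1 and Tap2 form the transporter as a pair, and the estimates for the 2 genes were unequal. Tap1 had medians of 27.7 CPM in tumors and, in normal kidneys, 15.6 CPM (0.89 ± 0.21, adjusted p = 0.00177), whereas Tap2 had medians of 23.2 and 18.6 CPM (0.31 ± 0.15, adjusted p = 0.0887, and 0.0469 without tumor 4). The difference between them was not tested.

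The class I chains were the most abundant members and rose in each tumor above each kidney. B2m, the invariant light chain, was at 172 to 594 CPM in normal kidneys (median 211) and 974 to 2870 CPM in tumors (median 1980), a log2 fold change of 2.79 ± 0.25 (adjusted p = 1.08e-08). Normal kidney 9 was the highest kidney, and tumors 7 and 2 were the lowest tumors. The heavy chains H2-D1 and H2-K1 had the same libraries at these ends. H2-D1 rose from a median of 325 CPM (232 to 464) to 2110 CPM (1280 to 2840), a log2 fold change of 2.63 ± 0.17 (adjusted p = 8.46e-11). H2-K1 rose from 344 CPM (284 to 555) to 1830 CPM (936 to 2570), a log2 fold change of 2.23 ± 0.19 (adjusted p = 3.98e-09). Nlrc5, the coactivator of class I genes, had medians of 9.64 CPM in tumors (3.76 to 15.2) and 6.62 CPM in normal kidneys (2.01 to 8.92) and lay at the threshold (0.63 ± 0.26, adjusted p = 0.053). Its adjusted p was under 0.05 in 6 alternatives, among them DESeq2, limma-voom and leaving out tumor 2, tumor 4 or normal kidney 3.

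**Figure D3:**
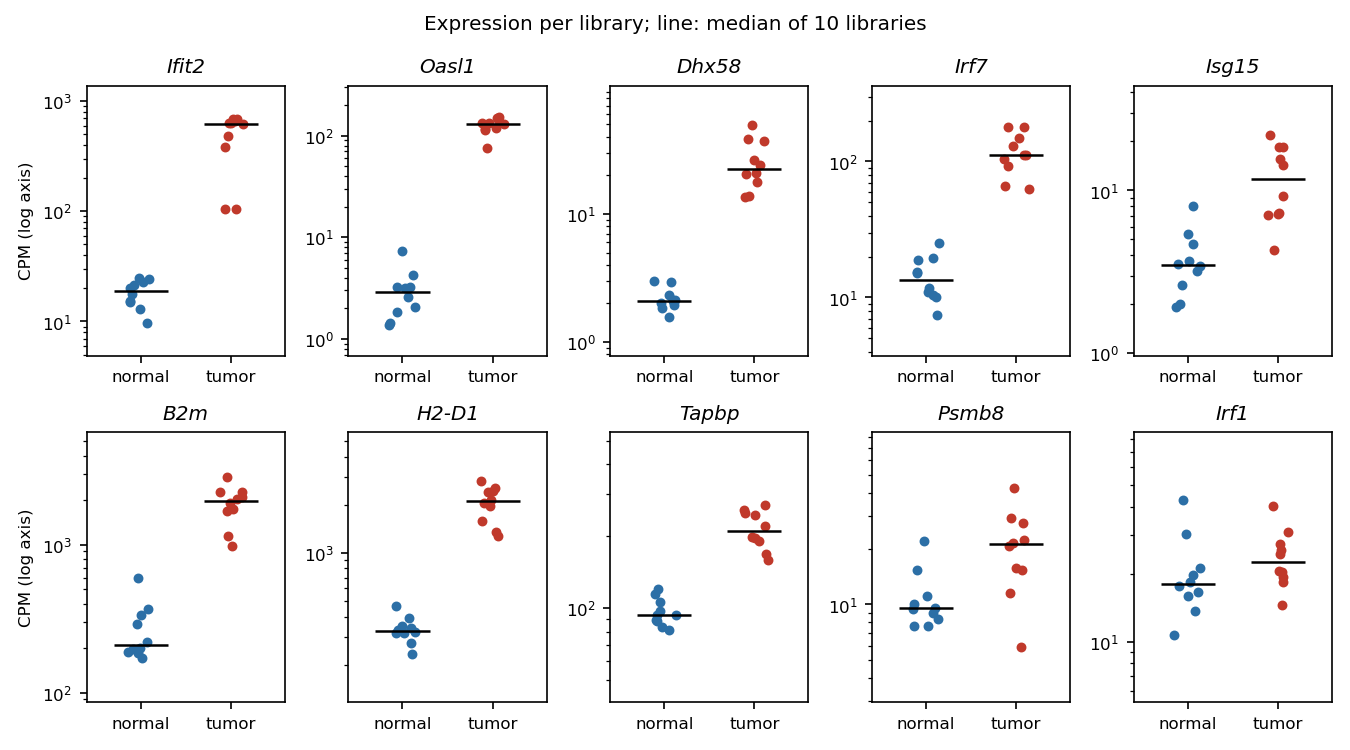
CPM on a log axis for 10 of the genes in each normal kidney (blue) and each tumor (red), with a line at the median of the 10 libraries of a group. For Ifit2, Oasl1, Dhx58, Irf7, B2m, H2-D1 and Tapbp the groups are separate, Isg15 and Psmb8 overlap in part, and Irf1 overlaps throughout. The 2 low tumors of Ifit2 sit at 104 and 105 CPM.

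Levels between genes were compared as mean CPM per kilobase of exon. The length is the union of exons, which for Irf7 (3776 bases) covers the whole gene from start to end. Levels and ranks of different genes are therefore only roughly comparable. In tumors B2m came first at 2210 CPM per kilobase, followed by H2-D1 at 801 and H2-K1 at 669, and the same 3 genes led in normal kidneys at 320, 129 and 142. Below them the order changed. Ifit2 went from rank 14 of 36 in normal kidneys (4.68 CPM per kilobase) to rank 5 in tumors (127), and Oasl1 from rank 29 (1.17) to rank 7 (48.3). Irf1 went from rank 12 (5.21) to rank 24 (6.09).

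The interferons themselves were hardly detected. Of 20 interferon genes listed, 14 had 0 counts in all 20 libraries, Ifnb1 and most of the interferon alpha genes among them, and the other 6 together had 22 counts, 9 in tumors and 13 in normal kidneys, with at most 2 counts of a gene in a library. None had enough counts to be tested, and Ifng stayed at or below 0.105 CPM in tumors and, in normal kidneys, 0.104 CPM. A count of 0 in a library leaves room for 0.11 to 0.189 CPM, so low levels were not detectable at this depth. The libraries were made from polyadenylated RNA.

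All 9 genes for the interferon receptors and their kinases were higher in tumors, beside 23.6% of all genes tested, with a median log2 fold change of 0.53. The gamma receptor chains rose most among the abundant members, Ifngr2 from a median of 23.6 CPM (20.8 to 60.5) to 91.9 CPM (84.6 to 129), a log2 fold change of 1.66 ± 0.18 (adjusted p = 1.36e-07), without overlap. Ifnlr1, the lambda interferon receptor, followed with 1.57 ± 0.28 (adjusted p = 9.32e-05), and the kinase Jak1 was the most abundant at a tumor median of 229 CPM (0.53 ± 0.14, adjusted p = 0.00394).

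Of 14 genes of nucleic acid sensing outside the set, 2 were higher (14.3%) and 0 lower, beside 23.6% and 23.8% of all genes tested. The share higher was thus below that of all genes. Ikbke, the kinase that phosphorylates Irf3 and Irf7, rose from 2.7 to 5.37 CPM in normal kidneys to 14.2 to 29.6 CPM in tumors (log2 fold change 2.50 ± 0.15, adjusted p = 2.68e-11), whereas its relative Tbk1 had medians of 35.8 and 35.5 CPM (-0.02 ± 0.10, adjusted p = 0.917). Zbp1, a sensor of Z-form nucleic acid, was higher (1.03 ± 0.37, adjusted p = 0.0259). The adaptor Mavs, through which the RNA sensors signal, was the most abundant of this list, at medians of 128 and 91.2 CPM (0.32 ± 0.18, adjusted p = 0.155). Of this list 1 gene was lower under upper quartile scaling, library totals, DESeq2, without tumor 7, without normal kidney 9 or without both, and 2 were lower in limma with quality weights. Of the same list 1 gene was higher without tumor 3 or tumor 8, and 4 were higher without tumor 7. Among 11 alternatives other than leaving out 1 library, 4 also moved the number higher, within a range of 1 to 4 genes. Among 8 restraints on the response, Ptpn2 (0.59 ± 0.17, adjusted p = 0.00791) and Adar (0.43 ± 0.16, adjusted p = 0.0352) were higher, Pias1 was lower (-0.22 ± 0.08, adjusted p = 0.0356), and 4 others did not pass. Of the 7 tested, that was 28.6% higher and 14.3% lower, with the share higher near that of all genes. Trex1 was listed at 0 in all libraries. How the counting treated genes that share bases is not given in the sources used here, so absence of its RNA was not shown. The restraints that were higher came to 1 without any 1 of normal kidneys 1, 4, 7 and 10 or tumors 1, 3, 8 and 9, and Pias1 lost its call without any 1 of normal kidneys 1, 2, 8 and 10 or tumors 1, 2, 3 and 4.

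Of 24 other interferon-stimulated genes, 17 were higher (70.8%) and 3 lower (12.5%), beside 23.6% and 23.8% of all genes tested. Ifi204, of the family of cytosolic and nuclear DNA-binding p200 proteins, rose from 2.76 to 8.69 CPM in normal kidneys to 37.1 to 90.3 CPM in tumors (log2 fold change 3.27 ± 0.21, adjusted p = 9.72e-11). Lgals3bp, a secreted glycoprotein and the most abundant of the list, rose from a median of 98.6 CPM to 722 CPM (2.77 ± 0.23, adjusted p = 2.77e-09). In both genes every tumor lay above every kidney. The genes that fell were Ifit1bl1, a relative of Ifit1 (-1.14 ± 0.33, adjusted p = 0.00675), Apobec3, a cytidine deaminase that restricts retroviruses (-1.06 ± 0.33, adjusted p = 0.0112), and Sp100, a nuclear body protein (-0.76 ± 0.25, adjusted p = 0.0182).

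Of 16 genes known chiefly from the interferon gamma response, 14 were tested, 5 were higher (35.7%) and 0 lower, beside 23.6% and 23.8% of all genes tested. The 0 depended on the processing. It became 1 under upper quartile scaling, library totals, a count minimum of 50, DESeq2, the replicate block, or without normal kidneys 5 and 7, and 2 in limma with quality weights or without tumor 7 and normal kidney 9. It also became 1 without any 1 of normal kidney 7, tumor 3 and tumor 8, and 2 without normal kidney 9. Gbp7 had the largest change (1.84 ± 0.30, adjusted p = 2.96e-05), followed by Irgm1, an immunity-related GTPase and the most abundant of the list, which rose from a median of 47.5 CPM to 158 CPM (1.59 ± 0.32, adjusted p = 0.000289). Gbp6, the chemokine Cxcl10 and Cd274, which encodes PD-L1, were the other 3. Of 11 genes for constitutive proteasome subunits, the PA28 activator and loading chaperones, 6 were higher (54.5%, beside 23.6% of all genes tested). These were Erap1, a peptide-trimming aminopeptidase (0.72 ± 0.16, adjusted p = 0.00107), Calr, a chaperone and the most abundant of the list (0.52 ± 0.15, adjusted p = 0.00634), Pdia3, Canx, Tapbpl and Psme3. The interferon-inducible PA28 chains Psme1 and Psme2 did not pass, at -0.02 ± 0.14 and 0.03 ± 0.20.

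Of 13 other class I heavy chains, 9 were higher (69.2%) and 1 lower (7.69%), beside 23.6% and 23.8% of all genes tested. H2-Q1 was at 0 to 0.296 CPM in normal kidneys and 4.61 to 77.4 CPM in tumors (log2 fold change 8.20 ± 0.59, adjusted p = 4.18e-10), and H2-Q2 at 0.729 to 4.2 CPM and 56.9 to 393 CPM (6.78 ± 0.44, adjusted p = 9.37e-11). The kidney values of H2-Q1 lay near the floor of 3 counts (0.11 to 0.189 CPM), so the size of its fold change is uncertain. Reads from these near-identical paralogs, H2-K1 and H2-D1 included, can be shared between copies, and how the counting treated them is not given in the sources used here. H2-T24 was lower (-0.83 ± 0.32, adjusted p = 0.0413), a call lost when any 1 of 12 libraries was left out (normal kidneys 1, 2, 3, 4, 6 and 10, and tumors 1, 2, 5, 7, 8 and 10). Cd1d1, which presents lipids, rose from a median of 5.76 CPM to 58.2 CPM (2.75 ± 0.31, adjusted p = 2.65e-07), without overlap between the groups.

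**Figure D4:**
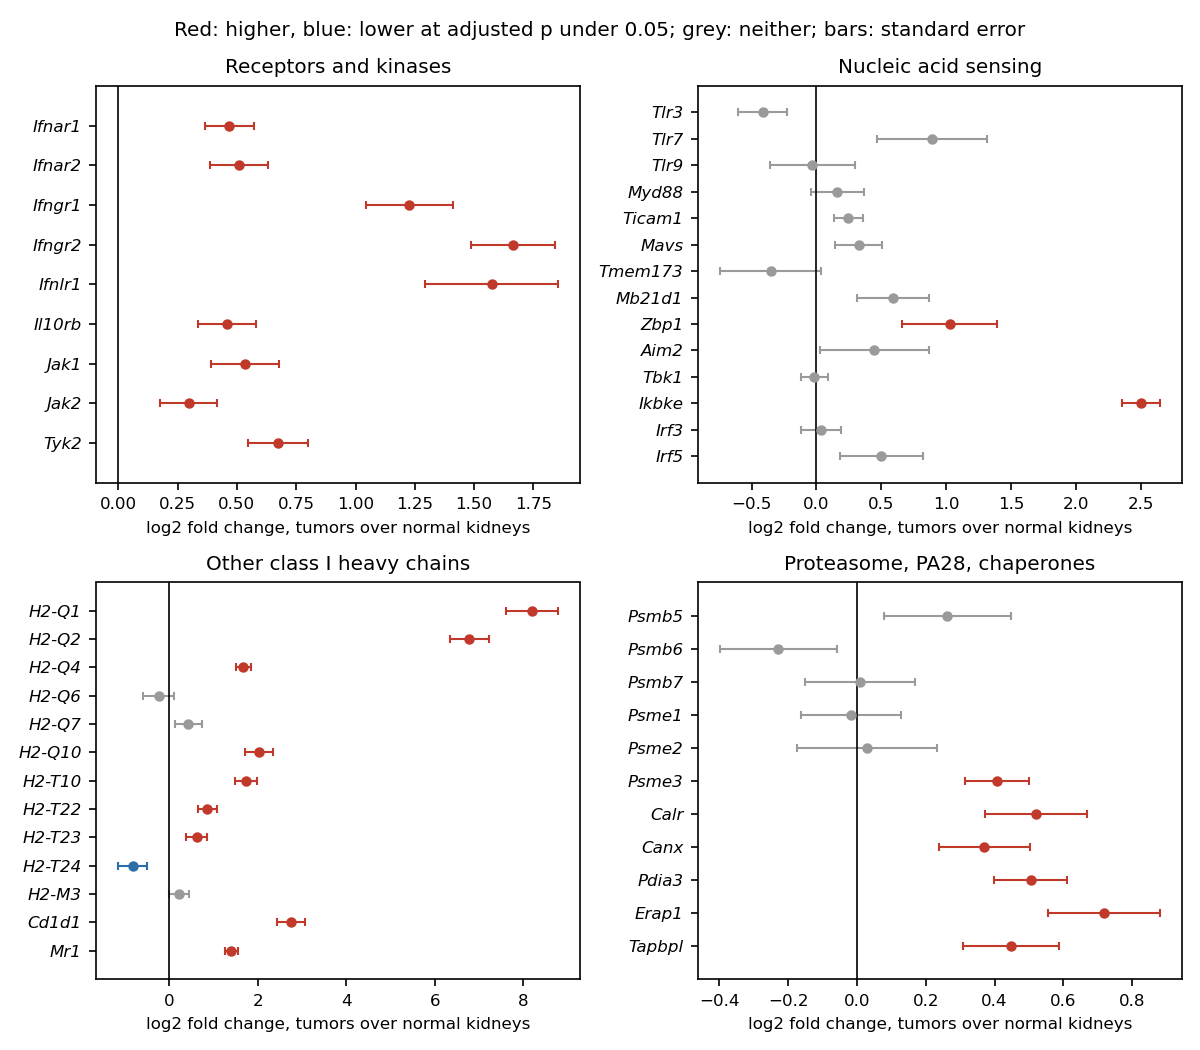
Log2 fold change of tumors over normal kidneys (x axis, with a different range in each panel) for the tested genes of 4 lists outside the set. Bars are standard errors, red marks higher, blue lower and grey neither at an adjusted p under 0.05. All 9 genes for receptors and kinases are to the right of 0, Ikbke stands out among the sensing genes at 2.50, and H2-Q1 and H2-Q2 reach 8.20 and 6.78. H2-Q1 was near the floor of 3 counts in normal kidneys.

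The tumors differed among themselves in a shared way across members. Tumor 8 held the highest value of the 10 tumors for 21 of the 36 genes and tumor 3 for 10. At the other end, tumor 7 was lowest for 17 and tumor 2 for 14. Over the 36 genes, the median deviation from the mean log2 CPM of the tumors was 0.67 in tumor 8, -0.73 in tumor 7 and -0.83 in tumor 2. Among normal kidneys, kidney 3 was among the highest 3 for 31 of the 36 genes, and kidney 7, with the highest Havcr1, was among the lowest 3 for 24. Kidney 5, next in Havcr1, was among the lowest 3 for 20, whereas kidney 8, the one after it, was highest for 10 genes and among the highest 3 for 15. Kidney 9 was highest for 10 genes, such as B2m, H2-K1, Bst2 and Isg15 (lengths of 860, 2608, 903 and 756 bases). It was lowest for 8, such as Ddx58 and Ifih1 (7050 and 8165 bases). Its Pbrm1 and Tsc1 were the lowest of the kidneys, at 20 and 18.9 CPM, against kidney medians of 66.8 and 55.5 CPM. A relation of the values of kidney 9 to gene length or library quality was not tested. The SD of log2 CPM was wider in tumors for 21 genes and in normal kidneys for 15. Shares over all genes tested are not given for these orders and spreads, so they were not shown to be particular to the set.

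Markers of leukocytes moved with the groups in part. Ptprc, which encodes CD45 of all leukocytes, had medians of 13 CPM in tumors (6.64 to 36.5) and 12.6 CPM in normal kidneys (6.28 to 20.4), a log2 fold change of 0.31 ± 0.29 (adjusted p = 0.407). Of 8 macrophage markers, 6 were higher (75%, beside 23.6% of all genes tested), led by Cd68 (3.48 ± 0.51, adjusted p = 8.37e-06). The summed level of the 8 markers was 338.1 to 2181 CPM in tumors (median 507) against 133.1 to 539.4 CPM in normal kidneys (median 206). No macrophage marker was at 0 in any library. Of 7 T cell markers 3 could be tested and Cd8a was lower (-1.35 ± 0.54, adjusted p = 0.045), with summed levels of 0.8858 to 9.575 CPM in tumors and 1.351 to 13.51 CPM in normal kidneys. Cd3e was at 0 in 3 tumors. None of 6 NK cell markers had enough counts for a test, and Ncr1 was at 0 in 6 tumors and 6 normal kidneys. Of 4 dendritic cell markers tested Flt3 and Clec9a were lower, and of 3 neutrophil markers tested Csf3r was higher. Cd79b, the 1 B cell marker tested, was lower. Of 5 endothelial markers Cdh5 was higher, of 5 fibroblast markers Pdgfra was lower, and of 4 injury markers Vcam1 was higher and Lcn2 lower. The other markers tested in these lists did not pass. Both the endothelial and the fibroblast list had 2 positive and 3 negative fold changes, so no shift of either list as a whole was shown. Of all genes tested, 23.6% were higher and 23.8% lower. The part of macrophages in the rise of the 36 genes was not tested.

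**Figure D5:**
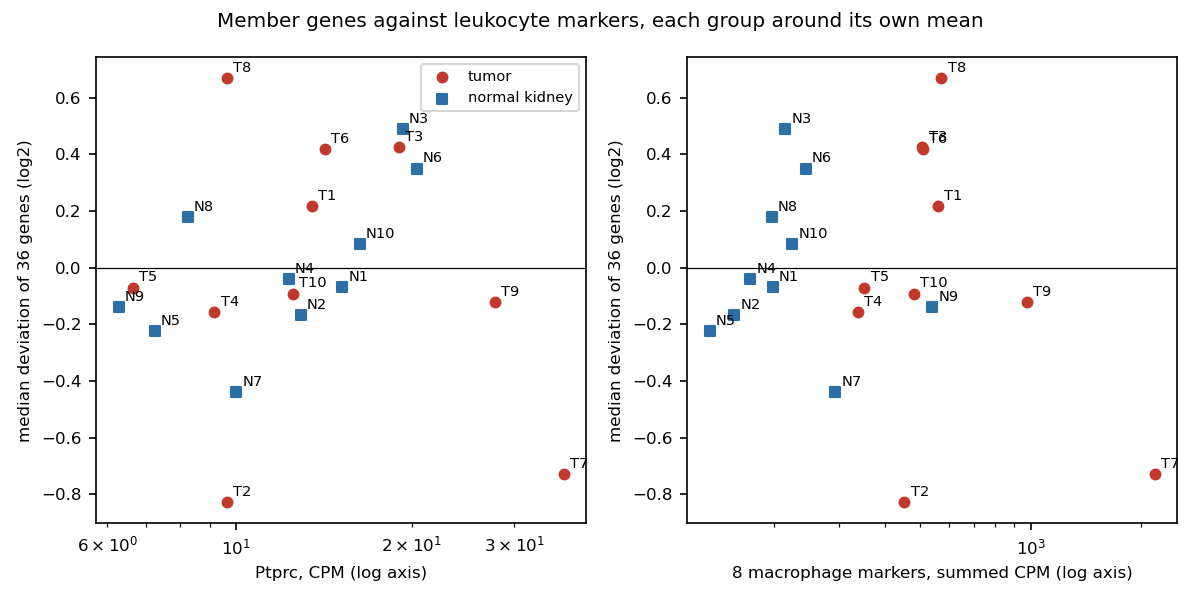
Median deviation of the 36 genes from the mean log2 CPM of their own group (y axis) in each tumor (T, red circles) and normal kidney (N, blue squares), against CPM of Ptprc (left) and summed CPM of 8 macrophage markers (right), both on log axes. Tumor 7 has the highest Ptprc (36.5 CPM) and the highest macrophage sum (2181 CPM) and one of the lowest deviations (-0.73), whereas tumor 8 has the highest deviation (0.67) at 9.63 CPM of Ptprc.

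Tumor 7, with the most Ptprc and macrophage marker RNA of the tumors, was thus one of the lowest in interferon-stimulated and class I genes. That is 1 library, and its composition differed in other ways. It also had the highest fibroblast marker sum of the tumors (3744 CPM) and the lowest proximal tubule marker sum (844.2 CPM). In 16 relations between pairs of genes, 8 in each group, Ptprc was set against Isg15, H2-K1, B2m and Psmb9, and 0 of these 8 relations passed after adjustment over all 16. In tumors Ptprc and B2m had r = -0.28 and rho = 0.02 (adjusted permutation p = 0.653 and 0.973), and without tumors 7 and 9, the 2 farthest from the median of Ptprc, r was 0.58 (unadjusted permutation p = 0.123). Without the same 2 tumors, r of Ptprc with Isg15, H2-K1 and Psmb9 was 0.33, 0.48 and 0.67, none of which passed. The relation that passed was that of Irf7 with Isg15 in tumors, with r = 0.88 (permutation p = 0.00061, adjusted p = 0.00976) and rho = 0.87 (p = 0.00208, adjusted p = 0.0333). Without tumors 2 and 7, the 2 farthest from the median of Irf7, its r was 0.81 and it no longer passed (permutation p = 0.0223, adjusted p = 0.136). With 8 libraries left, the part of those 2 tumors and that of the smaller number cannot be told apart. In normal kidneys without 2 libraries, an r of 0.88 for this pair did not pass either (adjusted permutation p = 0.0805). In normal kidneys the same pair had r = 0.78 (permutation p = 0.00854, adjusted p = 0.0519) and rho = 0.79. B2m with Isg15 had r = 0.71 in tumors and 0.74 in normal kidneys (adjusted permutation p = 0.0533 for both), and fell to 0.50 and 0.20 without the 2 farthest libraries. Irf1 with Psmb9 in tumors had r = 0.71 (adjusted permutation p = 0.0533) and Nlrc5 with Tap1 had r = 0.77 (adjusted permutation p = 0.0519). All these points share library scaling and tissue composition.

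Of the 36 genes, 17 overlap another annotated gene, and whether counting used strand is not given in the sources used here. Most of these partners were near 0. Patl2, which covers B2m on the opposite strand for 5398 bases, had mean levels of 0.0171 CPM in tumors and, in normal kidneys, 0.027 CPM. Zbtb22 shares 3421 bases with Tapbp on the same strand and was at 28.8 and 33.3 CPM, below Tapbp in both groups and lower in tumors by its mean. Phrf1 meets Irf7 over 45 bases on the opposite strand, at 58.8 and 39.7 CPM, and Tap1 and Psmb9 overlap each other by 212 bases.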

How the data were processed

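Poly(A)-enriched RNA of 10 tumors and 10 normal kidneys was sequenced as paired reads by a sequencing company, and the authors deposited whole-number read counts per gene without normalization. The genome build per the submitters' processing notes is mm10. Aligner, counter and use of strand are not given in the sources used here. Gene length in bases, deposited by the authors beside the counts, is the union of exons and was used for levels per kilobase. Groups came from the labels. The 36 genes, the other lists and the tests were chosen with earlier results of these data known. All members were named, and of each other list the genes with the largest rise and fall past the threshold, the most abundant and those at 0. A few further genes were named after their values were seen. A gene of the receptor list is not reported here.

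Counts were scaled by TMM, genes with low counts were removed (filterByExpr, count minimum 10) and 15354 of 54532 genes were tested with the quasi-likelihood test of edgeR 4.0.16 in R 4.3.3, with Benjamini-Hochberg adjustment over all of them. CPM used TMM-scaled library sizes, and log2 CPM used a prior count of 2. Ratios and relations were tested by permutation (100000 resamples, scipy 1.17.1). Alternatives were other scalings, filters and tests (DESeq2 1.42.0, limma 3.58.1), a replicate block, and left-out libraries. The fits and permutation tests were checked on simulated data. No 2 libraries of a group agreed within sampling noise (over 90 pairs, chi-square per degree of freedom was 12.8 or more). Floors of 3 counts cover counting error only. p-values measure the spread between mice, and the unpaired fit takes no account of tissue shared by a mouse.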

Additional observations from a re-analysis of the deposited data

Results flagged for a closer look

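Each of the 36 genes was examined in both groups for a single library far from the other 9, by the gap to its nearest neighbor over the range of the group (Dixon's criterion). Of 72 such groups 5 were singled out, and chance alone gives about 1 in 20. Oasl1 was lowest in tumor 7, at 6.23 log2 CPM, with the next tumor at 6.83. Ifi35 was highest in normal kidney 9, at 4.27 log2 CPM, with the next kidney at 3.67. Usp18 was lowest in normal kidney 7, one of those with high Havcr1, at -0.21 log2 CPM, with the next at 1.45. Ddx58 and Ifih1 were lowest in normal kidney 9, at 3.34 and 2.89 log2 CPM, with the next kidneys at 4.44 and 3.84. Without tumor 7 and normal kidney 9, the adjusted p of Oasl1, Ifi35, Ddx58 and Ifih1 was 8.76e-12, 5.23e-06, 1.49e-09 and 3.12e-07.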

How the results depend on the processing

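Of 1112 values of the 36 fold changes under the alternatives, 1078 kept their direction and their side of the threshold, 18 lost the call, 16 gained it and 0 reversed, and 26 genes kept their call in every alternative run. The number of members higher was 25 (count minimum of 50, which tested fewer genes) to 35 (replicate block), 28 to 31 with 1 library left out, and 0 were lower in any. The series text places tumors and kidneys in the same mice, but the labels do not say that equal numbers mark a mouse. Deviations of same-numbered libraries correlated over 0.1 in 9 of 10 pairs (-0.122 in the remaining pair, 9, and up to 0.372), and 8 tumors correlated best with their own number, so the replicate block is a hint from the data. With it Psmb9 over Psmb6 stayed at 0.92 with an adjusted permutation p of 0.0234, 8 genes of the interferon gamma list were higher, and 6 members gained the call, Irf1 (adjusted p = 0.0223), Cmpk2 (0.0317), Gbp3 (0.0131), Psmb10 (0.049), Tap2 (0.0327) and Nlrc5 (0.0393), by edgeR. Leaving out 1 library gave 0.76 to 1.04 for Psmb9 over Psmb6, 0.37 to 0.69 for Psmb8 over Psmb5 and 0.24 to 0.40 for Psmb10 over Psmb7. The relations of Ptprc with Isg15, H2-K1 and B2m each changed sign in at least 1 alternative in both groups, and that with Psmb9 stayed positive in all 4 (0.33 to 0.67 in tumors and 0.33 to 0.59 in normal kidneys). Without the 2 farthest libraries r was 0.33 with Isg15, 0.48 with H2-K1 and 0.58 with B2m in tumors, and 0.42, 0.70 and 0.70 in normal kidneys. With library totals it was 0.0321 for H2-K1 in tumors, and 0.29 for H2-K1 and 0.0401 for B2m in normal kidneys. Without tumor 7 and normal kidney 9 it was 0.33 for H2-K1 and 0.28 for B2m in tumors, and 0.30 for Isg15, 0.58 for H2-K1 and 0.71 for B2m in normal kidneys. Irf7 with Isg15 in tumors lost its call without the 2 farthest (r = 0.81, adjusted permutation p = 0.136), and Irf1 with Psmb9 in tumors gained one without tumor 7 (r = 0.83, adjusted permutation p = 0.0398). The causes were not tested. Depth limits the interferons and most lymphocyte markers.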
